A study of Mus musculus with 8 samples.

Results

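The platelet-derived growth factor (PDGF) ligand genes Pdgfa, Pdgfb, Pdgfc and Pdgfd and the receptor genes Pdgfra and Pdgfrb were followed in pericytes and SMCs of mouse skeletal muscle. The genes were taken by symbol, and all 6 were found once each among the 37979 genes listed. All animals were Ai14+/-;SM22α-Cre+ mice of 3 to 4 months and of both sexes, in which Cre driven by the SM22α promoter leaves a permanent tdTomato label in any cell that has used that promoter. Hindlimb muscle cells without CD31 or CD45 staining and with PDGFRβ staining were, per the study's methods, sorted into pericytes (tdTomato-) and SMCs (tdTomato+), and 4 libraries were made of each, each from about 60000 cells pooled over several sorts. The sources used here do not say which animals entered which library, so the spread between libraries is that of these pools. Both groups were gated on PDGFRβ protein, so Pdgfrb is the transcript of a gate marker that both groups share. A legend of the study writes both sorted populations as CD31+ instead, which bears on the endothelial marker levels given below.

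PDGF ligands are dimers of A, B, C or D chains that bind and pair the receptor tyrosine kinases PDGFRα and PDGFRβ. The A and C chains act mainly through PDGFRα and the B and D chains mainly through PDGFRβ, and the C and D chains carry a CUB domain that a protease must remove before they can signal. In vessels, PDGF-B from endothelial cells recruits PDGFRβ-bearing pericytes and SMCs, whereas in skeletal muscle PDGFRα is the usual mark of fibro-adipogenic progenitors, the resident fibroblasts.

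The gene starts of the members are given here because 4 of them, Pdgfa, Pdgfc, Pdgfd and Pdgfra, had higher transcript levels in SMCs. RefSeq promoter windows (GRCm38.p6) were matched for 4 of the 6 members, and the 250 bases before each start were found again, as a single exact match, on NCBIM37. Capitals mark the matches on either strand of GGGCGG (GC box), CANNTG (E-box), TGANTCA (AP-1), TATAAA (the core of a TATA box) or the CArG box, the motif that serum response factor binds.
Pdgfa, chr5:139470899-139471148, minus strand: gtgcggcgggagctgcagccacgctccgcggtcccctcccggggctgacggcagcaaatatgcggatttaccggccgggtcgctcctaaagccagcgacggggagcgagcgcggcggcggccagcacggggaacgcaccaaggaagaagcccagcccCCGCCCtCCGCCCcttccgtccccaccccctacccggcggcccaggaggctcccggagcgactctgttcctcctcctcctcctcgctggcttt
Pdgfc, chr3:80840088-80840337, plus strand: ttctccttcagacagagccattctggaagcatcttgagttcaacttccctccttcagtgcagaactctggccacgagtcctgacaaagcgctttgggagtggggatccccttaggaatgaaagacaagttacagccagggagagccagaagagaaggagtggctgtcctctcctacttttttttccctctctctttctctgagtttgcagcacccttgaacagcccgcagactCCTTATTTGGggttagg
Pdgfd, chr9:6168236-6168485, plus strand: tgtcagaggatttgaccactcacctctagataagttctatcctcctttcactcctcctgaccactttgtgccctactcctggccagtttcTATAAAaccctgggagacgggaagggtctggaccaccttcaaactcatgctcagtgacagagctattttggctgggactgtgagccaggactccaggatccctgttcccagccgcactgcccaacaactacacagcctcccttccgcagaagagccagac
Pdgfra, chr5:75548026-75548275, plus strand: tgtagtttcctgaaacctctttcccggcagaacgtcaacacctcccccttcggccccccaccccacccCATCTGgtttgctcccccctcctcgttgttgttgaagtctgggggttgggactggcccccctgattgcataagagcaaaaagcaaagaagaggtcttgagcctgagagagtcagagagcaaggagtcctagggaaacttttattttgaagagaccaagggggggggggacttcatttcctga

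The Pdgfa window held 2 GC boxes, and 72.4% of its bases were G or C, where the median over 32841 promoter windows of this length was 52.4%. The Pdgfc window held 1 CArG box, the Pdgfd window 1 TATA match and the Pdgfra window 1 E-box. Among all windows, 32.7% held a GC box, 66.2% an E-box, 6.75% an AP-1 match, 12.4% a TATA match and 1.47% a CArG box. No motif was shared by any 2 of the 4 windows, and no 2 matches overlapped. RefSeq lists another Pdgfa start on the same strand (chr5:139470236-139470485 before it), and both lie inside the gene as GENCODE draws it, 2426 and 3089 bases from its outer end.

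On NCBIM37, the build of the authors' alignment, Pdgfa covers chromosome 5 from 139451968 to 139473324 (minus strand), Pdgfra chromosome 5 from 75548316 to 75594229 (plus), Pdgfb chromosome 15 from 79826330 to 79845238 (minus), Pdgfc chromosome 3 from 80840338 to 81017962 (plus), Pdgfd chromosome 9 from 6168612 to 6378843 (plus) and Pdgfrb chromosome 18 from 61204804 to 61244715 (plus). Whether strand was used in counting is not given in the sources used here, and genes on the other strand overlap 3 members. Of these overlapping genes, 6330403L08Rik within Pdgfa had at most 0.795 FPKM in any library and Ddi1 within Pdgfd at most 0.295 FPKM, and Gm17247 and Gm16000 were listed at 0 in all 8 libraries.

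Values are FPKM, which count fragments relative to transcript length and library size and so allow levels to be compared between genes within a library. Relative depth, read from steps between low FPKM values, ran from 0.867 to 1.07 of the mean, and the summed FPKM of a library ran from 656405 to 1190440, highest in pericyte replicate 2, so equal FPKM are not equal shares of 2 libraries. The sorted groups were checked against marker lists. Of 10 pericyte markers, none passed in the direction of pericytes (limma q value below 0.05). Rgs5, Ndufa4l2 and Vtn passed in the direction of SMCs. Rgs5 lost its call without pericyte replicate 1 or SMC replicate 3 or 4 (limma q up to 0.0656). None of 8 smooth muscle markers passed, although each had a higher mean in SMCs. Their median difference was 1.31 on the log2(FPKM + 1) scale, SMCs minus pericytes. Acta2 and Tagln passed with low genes filtered out (limma q = 0.0316 and 0.0366) and with TPM scaling, and Acta2 also with quantile scaling (limma q = 0.0236). Lymphocyte markers were higher in pericytes for 11 of 12 genes, with a summed level of 2483 to 4434 FPKM against 41.0 to 77.8 in SMCs. Among them was Ptprc, the gene of CD45, although both groups were sorted without CD45 staining. Ptprc had 80.6 to 230.3 FPKM in pericytes and 4.34 to 11.9 FPKM in SMCs (limma q = 4.0e-04). Fibroblast markers were higher in SMCs for 11 of 12 genes (6353 to 8752 FPKM summed against 1223 to 2184 in pericytes), the exception being Dcn, for which all 4 SMC libraries held 0 FPKM. Endothelial markers were higher in SMCs for 9 of 12 genes (710 to 1816 FPKM summed against 138 to 244). The groups are called pericytes and SMCs below as they were labelled at the sort.

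**Figure D1:**
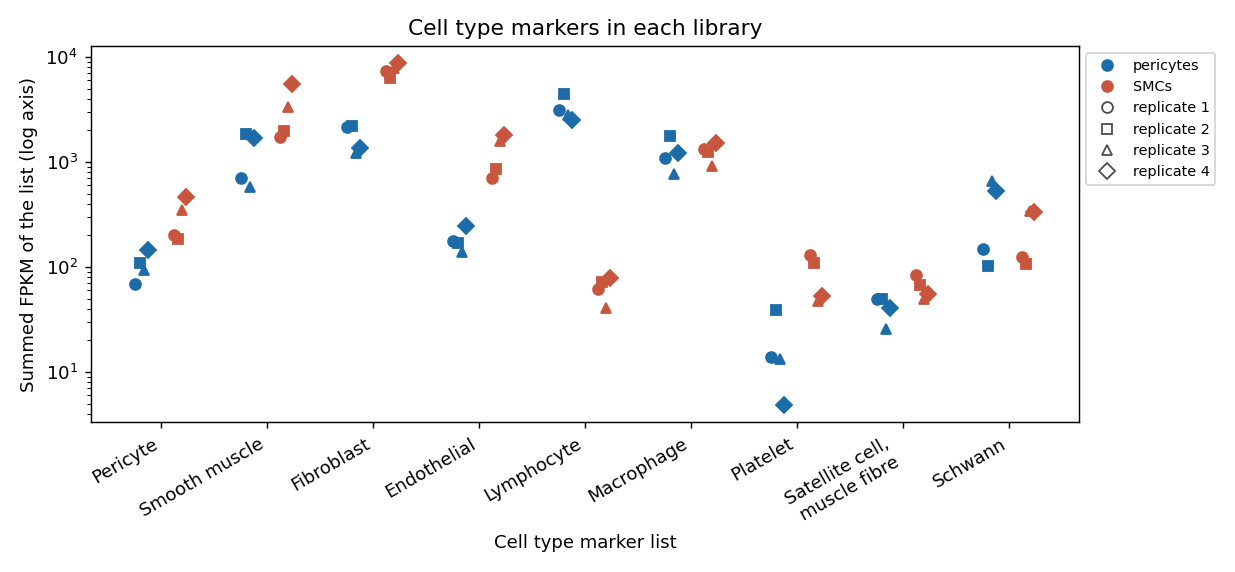
Summed FPKM of each cell type marker list (log axis), with 1 point per library, pericytes in blue, SMCs in red and replicate numbers as symbols. Lymphocyte markers sat at 2483 FPKM or more in all 4 pericyte libraries and at 77.8 or less in all 4 SMC libraries, and fibroblast and endothelial markers lay the other way round.

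All 6 members had a higher mean in SMCs, and 4 of them, Pdgfra, Pdgfd, Pdgfc and Pdgfa, passed the test and had every SMC library above every pericyte library. Over all 27414 genes tested, 11.2% passed in this direction (limma on log2(FPKM + 1), Benjamini-Hochberg q value below 0.05) (21.8% passed in either direction), and 12.5% had SMC libraries that all lay above the pericyte libraries. Pdgfra and Pdgfd also passed a log2 fold change of 2, which 2.66% of all genes did in this direction and 3.24% in the other. Pdgfb and Pdgfrb overlapped between the groups and did not pass. In bulk RNA, fewer cells of a type and less RNA per cell cannot be told apart, so each value is an average over the sorted cells.

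**Figure D2:**
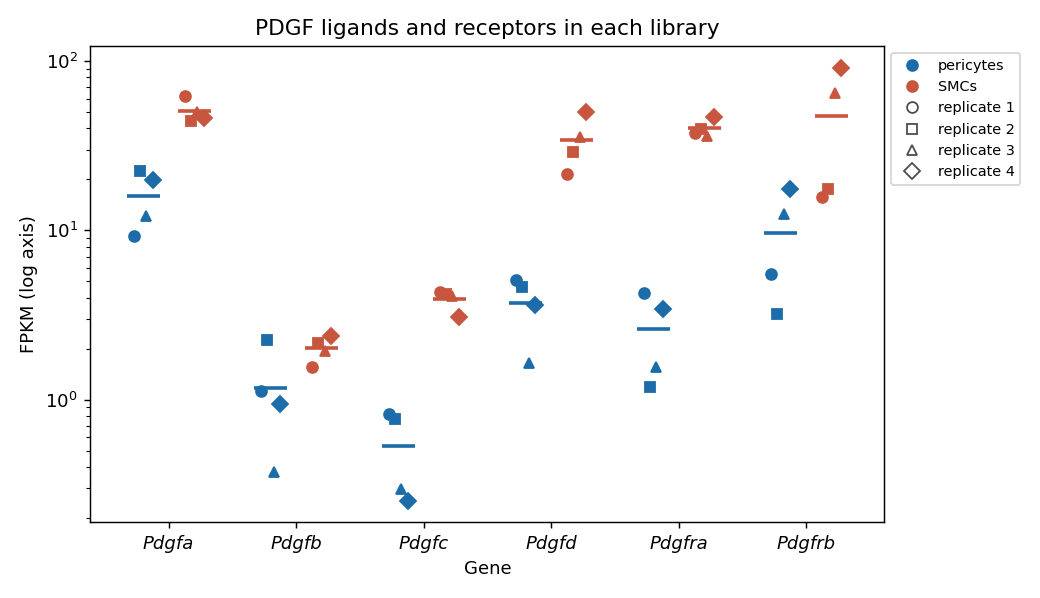
FPKM (log axis) of the 4 ligand and 2 receptor genes in each library, pericytes in blue and SMCs in red, with replicate numbers as symbols and bars at the group means. The groups lie apart for Pdgfa, Pdgfc, Pdgfd and Pdgfra and overlap for Pdgfb and Pdgfrb.

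Pdgfa encodes the A chain, a ligand of PDGFRα that is active without extracellular processing. It had 9.24, 22.4, 12.2 and 19.9 FPKM in pericyte replicates 1 to 4, and 62.1, 44.5, 49.8 and 45.9 FPKM in SMC replicates 1 to 4. The groups did not overlap, and the lowest SMC library had 1.99 times the FPKM of the highest pericyte library. The mean was 50.6 ± 8.01 FPKM in SMCs and 15.9 ± 6.22 FPKM in pericytes (SD, n = 4 each), and the difference on the log2(FPKM + 1) scale was 1.68 (standard error 0.28, limma q = 0.00476). It was the most abundant ligand in 7 of the 8 libraries.

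Pdgfc encodes the C chain, a latent CUB-domain ligand that acts through PDGFRα. It had 0.825, 0.767, 0.295 and 0.253 FPKM in pericyte replicates 1 to 4, and 4.33, 4.20, 4.07 and 3.08 FPKM in SMC replicates 1 to 4. All pericyte libraries were below 1 FPKM and all SMC libraries above 3 FPKM, with means of 0.535 ± 0.303 and 3.92 ± 0.570 FPKM (SD, n = 4 each), a ratio of 7.32. The difference on the log2(FPKM + 1) scale was 1.69 (standard error 0.16, limma q = 4.1e-04), a scale that understates the change of low genes, and with a pseudocount of 0.1 it was 2.78 (limma q = 0.00124).

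Pdgfd encodes the D chain, a latent CUB-domain ligand of PDGFRβ. It had 5.11, 4.62, 1.64 and 3.60 FPKM in pericyte replicates 1 to 4. In SMC replicates 1 to 4 it had 21.6, 29.0, 35.5 and 49.7 FPKM. The lowest SMC library had 4.22 times the FPKM of the highest pericyte library, and the means were 34.0 ± 12.0 FPKM in SMCs and 3.75 ± 1.54 FPKM in pericytes (SD, n = 4 each). The log2(FPKM + 1) difference was 2.89 (standard error 0.34, limma q = 0.00104), the largest among the 4 ligands. In SMC replicate 4 it passed Pdgfa and made up 49.2% of the summed ligand FPKM.

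Pdgfb encodes the B chain, the endothelial ligand of PDGFRβ. It had 1.12, 2.24, 0.373 and 0.946 FPKM in pericyte replicates 1 to 4, and 1.56, 2.16, 1.94 and 2.37 FPKM in SMC replicates 1 to 4. Pericyte replicate 2 was above 3 of the SMC libraries, and the other pericyte libraries were below all SMC libraries. The means were 2.01 ± 0.349 FPKM in SMCs and 1.17 ± 0.780 FPKM in pericytes (SD, n = 4 each), and the log2(FPKM + 1) difference of 0.53 (standard error 0.25) did not pass (limma q = 0.197). Without pericyte replicate 2 the difference was 0.75 and passed (limma q = 0.0253), and it also passed after TPM scaling, which gives every library an equal sum (0.78, limma q = 0.0414). The SMC libraries also had 2.91 times or more the endothelial marker sum of any pericyte library, and the part of such cells in the level of Pdgfb was not tested. Platelets, which also carry PDGF-B, have 7 listed markers, of which Pf4 and Itga2b were higher in SMCs, Ppbp, Gp9, Gp1ba and Treml1 did not pass, and Gp6 was listed at 0 in all libraries. Ppbp, Gp9 and Treml1 had higher means in pericytes (1.70, 0.301 and 0.485 FPKM against 0.380, 0.196 and 0.0768 FPKM), and the median difference of the list was -0.05. The summed level of the list was 47.7 to 130.1 FPKM in SMCs and 4.84 to 39.0 FPKM in pericytes. The part of platelets in the level of Pdgfb was not tested.

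Pdgfra encodes PDGFRα. It had 4.26, 1.19, 1.55 and 3.41 FPKM in pericyte replicates 1 to 4, and 37.4, 39.8, 36.1 and 46.8 FPKM in SMC replicates 1 to 4. The groups were far apart, since the lowest SMC library had 8.48 times the FPKM of the highest pericyte library. The means were 40.0 ± 4.75 FPKM in SMCs and 2.60 ± 1.47 FPKM in pericytes (SD, n = 4 each), a ratio of 15.4, and the log2(FPKM + 1) difference of 3.60 (standard error 0.29, limma q = 2.1e-04) was the largest of the 6 members. The SMC libraries also had 2.91 times or more the fibroblast marker sum of any pericyte library. The sum includes Lum, at 1131 to 1971 FPKM in SMCs against 51.1 to 139 FPKM in pericytes. It also includes Dcn, at 509 to 1165 FPKM in pericytes and 0 FPKM in all SMC libraries. Without Dcn the ratio of the sums would be larger. The part of fibroblasts in the level of Pdgfra was not tested.

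Pdgfrb encodes PDGFRβ, the receptor on which both groups were sorted. It had 5.51, 3.21, 12.5 and 17.6 FPKM in pericyte replicates 1 to 4. In SMC replicates 1 to 4 it had 15.6, 17.4, 65.0 and 91.5 FPKM. Pericyte replicate 4 was above SMC replicates 1 and 2, so the groups overlapped. With a mean of 47.4 ± 37.2 FPKM in SMCs against 9.70 ± 6.59 FPKM in pericytes (SD, n = 4 each), the log2(FPKM + 1) difference of 2.02 had a standard error of 0.73 and did not pass (limma q = 0.0973).

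The spread of Pdgfrb followed the replicate numbers in both groups. Replicates 3 and 4 had 3.45 times the mean FPKM of replicates 1 and 2 in pericytes (15.0 against 4.36) and 4.73 times in SMCs (78.2 against 16.5). Replicates 3 and 4 were each above replicates 1 and 2 in both groups, a pattern that 15.5% of the 13612 genes averaging 1 FPKM or more shared. The upward shift, averaged over the 2 groups, was 1.88 on the log2(FPKM + 1) scale, above that of 99.3% of the 13612 genes. Genes that fell in replicates 3 and 4 count as lower in this ranking, whatever the size of their fall. The labels give all 8 libraries the same batch, so the numbers 1 and 2 against 3 and 4 are not a labelled batch. Within replicates 1 and 2 the SMCs minus pericytes difference was 1.74 on the log2(FPKM + 1) scale and within replicates 3 and 4 it was 2.30. With this split as a covariate the difference of 2.02 had a standard error of 0.22 and passed (limma q = 0.00104). No label defines the split and Pdgfrb itself follows it, so the lower standard error is no independent support. The difference also passed among genes with at least 1 FPKM in at least 4 libraries (limma q = 0.0272). With the replicate number as a block it passed as well, as given in the last section. SMC replicates 1 to 4 had 2.84, 5.44, 5.21 and 5.19 times the Pdgfrb FPKM of the pericyte library with the same number.

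**Figure D3:**
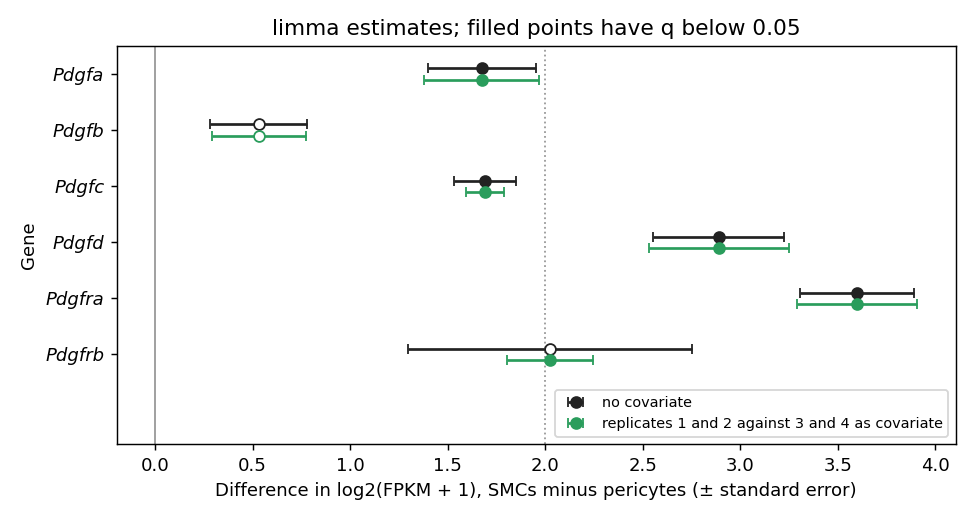
Difference in log2(FPKM + 1), SMCs minus pericytes, with standard errors, for each member from limma without a covariate (black) and with replicates 1 and 2 against 3 and 4 as a covariate (green). Filled points have a q value below 0.05, and the dotted line marks a difference of 2. The standard error of Pdgfrb falls from 0.73 to 0.22 with the covariate, an unlabelled split that Pdgfrb itself follows.

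No other member shared this split in the same direction in both groups. Pdgfra differed between replicates 3 and 4 and replicates 1 and 2 by -0.02 in pericytes and 0.09 in SMCs on the log2(FPKM + 1) scale, and Pdgfa by 0.10 and -0.13. Pdgfc was lower in replicates 3 and 4 in both groups, by 0.50 and 0.21 on the same scale. Its replicates 3 and 4 were each below replicates 1 and 2 in both groups, as for 16.4% of the 13612 genes. Pdgfb differed by -0.68 in pericytes and 0.15 in SMCs, and its SMCs minus pericytes difference was 0.12 within replicates 1 and 2 and 0.95 within replicates 3 and 4, although the replicate pairs did not separate in SMCs. Pdgfd had lower values in replicates 3 and 4 of the pericytes and higher values in replicates 3 and 4 of the SMCs, so its SMCs minus pericytes difference was 2.15 within replicates 1 and 2 and 3.63 within replicates 3 and 4. Pdgfrl, a gene for a secreted protein that resembles the extracellular part of a PDGF receptor, went the other way from Pdgfrb. It had 34.3, 43.4, 7.05 and 13.5 FPKM in pericyte replicates 1 to 4 and 290.5, 206.9, 92.8 and 121.1 FPKM in SMC replicates 1 to 4. The marker lists also differed along this split. In SMCs, endothelial markers summed to 710 to 861 FPKM in replicates 1 and 2 and 1590 to 1816 FPKM in replicates 3 and 4, smooth muscle markers to 1719 to 1994 and 3330 to 5537 FPKM, fibroblast markers to 6353 to 7407 and 7831 to 8752 FPKM, pericyte markers to 186 to 201 and 352 to 463 FPKM, and Schwann cell markers to 108 to 125 and 330.4 to 344 FPKM. Platelet markers went the other way in SMCs, from 109.7 to 130.1 FPKM in replicates 1 and 2 to 47.7 to 52.6 FPKM in replicates 3 and 4. In pericytes, fibroblast markers summed to 2159 to 2184 FPKM in replicates 1 and 2 and 1223 to 1354 FPKM in replicates 3 and 4, lymphocyte markers to 3152 to 4434 and 2483 to 2802 FPKM, Schwann cell markers to 103 to 147 and 534 to 657 FPKM, and platelet markers to 14.0 to 39.0 and 4.84 to 13.2 FPKM. Satellite cell and muscle fibre markers were lower in replicates 3 and 4 of both groups (25.6 to 40.5 against 49.8 to 50.1 FPKM in pericytes and 49.2 to 55.3 against 66.9 to 84.5 FPKM in SMCs). In pericytes the sums of pericyte, smooth muscle and endothelial markers overlapped between replicates 1 and 2 and replicates 3 and 4, as did macrophage markers in both groups and lymphocyte markers in SMCs. The part of these cells in the level of Pdgfrb was not tested.

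**Figure D4:**
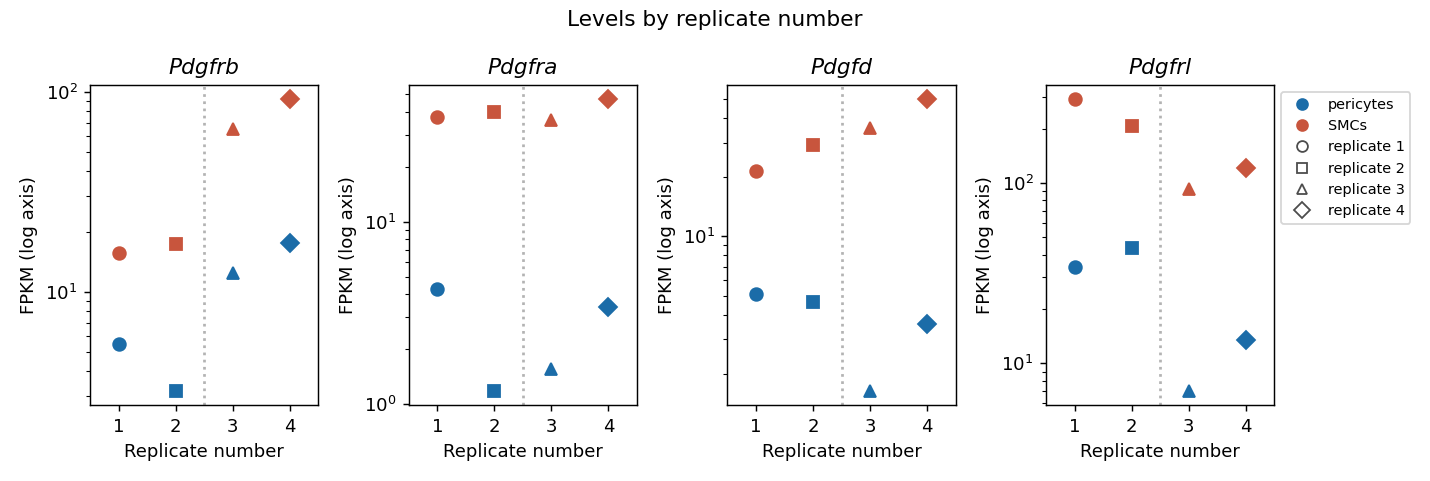
FPKM (log axis) of Pdgfrb, Pdgfra, Pdgfd and Pdgfrl against replicate number, which has no order of its own, with pericytes in blue, SMCs in red and a dotted line between replicates 2 and 3. Pdgfrb lies higher and Pdgfrl lower in replicates 3 and 4 of both groups, and Pdgfra stays between 36.1 and 46.8 FPKM in SMCs.

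The order of the mean levels differed between the groups. In pericytes it was Pdgfa, Pdgfrb, Pdgfd, Pdgfra, Pdgfb and Pdgfc from highest to lowest, and each of the 5 neighbouring pairs in this order overlapped between libraries. In SMCs it was Pdgfa, Pdgfrb, Pdgfra, Pdgfd, Pdgfc and Pdgfb, where the first 3 neighbouring pairs overlapped, whereas Pdgfd was above Pdgfc and Pdgfc above Pdgfb in every library. Pdgfc was thus below Pdgfb within each pericyte library and above it within each SMC library.

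The balance of the receptors is given as a description. Pdgfrb made up 56.4%, 73.0%, 88.9% and 83.8% of the summed receptor FPKM in pericyte replicates 1 to 4, and 29.5%, 30.5%, 64.3% and 66.2% in SMC replicates 1 to 4. Pdgfrb was above Pdgfra in all 4 pericyte libraries and in SMC replicates 3 and 4, and below it in SMC replicates 1 and 2. Within each replicate number the pericyte library had the larger Pdgfrb share, and the mean of log2(FPKM + 1) of Pdgfrb minus that of Pdgfra was 1.43 ± 0.98 in pericytes and -0.14 ± 1.20 in SMCs (SD, n = 4 each). Among ligands, Pdgfa made up 74.0% ± 12.2 of the summed FPKM in pericytes and 56.3% ± 9.86 in SMCs, and Pdgfd 18.2% ± 8.98 and 37.1% ± 10.3 (SD, n = 4 each). The ranges overlapped for both shares.

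The genes with the nearest profiles were found by the mean absolute difference between centred log2(FPKM + 1) values over the 8 libraries, among 13612 genes. For Pdgfrb they were Col18a1, a basement membrane collagen (mean absolute difference 0.09), Itga5, the fibronectin receptor α chain (0.14), and Thbd, the endothelial thrombin receptor thrombomodulin (0.14). For Pdgfra they were Tfpi2, a serine protease inhibitor (0.16), Smoc2, a matricellular protein (0.17), and Gabra3, a GABA receptor subunit (0.18). For Pdgfd they were Enpp3 (0.12), Plscr2 (0.14) and the complement gene C2 (0.16). For Pdgfa they were Cst3, the protease inhibitor cystatin C (0.10), Ltc4s (0.14) and Aig1 (0.15), and for Pdgfc they were Ccbp2 (0.09), Gem (0.10) and Leprot (0.11). For Pdgfb they were 4631405J19Rik (0.10), Mtcp1 (0.11) and Echs1 (0.12). Among members, Pdgfra and Pdgfd differed by 0.37 and Pdgfa and Pdgfc by 0.32, whereas Pdgfrb differed from each of the others by at least 0.94.

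The wider pathway was described by 78 genes in 6 lists. Of these, 23 were higher in SMCs, 14 were higher in pericytes and 41 did not pass, beside 11.2% and 10.6% of all genes tested in the same directions, and the median difference was 0.14 on the log2(FPKM + 1) scale, SMCs minus pericytes, against -0.02 over all genes. Without SMC replicate 3 the count higher in SMCs was 15, and with TPM scaling the count higher in pericytes was 8.

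Genes that process PDGF ligands or bind them beside the receptors were higher in SMCs for 7 of 10, with a median difference of 1.71. Fibroblast and endothelial marker sums were also 2.91 times or more higher in each SMC library than in any pericyte library. The part of such cells in the levels of these genes was not tested. Plat, the tissue plasminogen activator that frees the C chain from its CUB domain, had 35.3, 17.6, 23.9 and 26.8 FPKM in pericyte replicates 1 to 4 and 151.6, 144.6, 190.3 and 197.2 FPKM in SMC replicates 1 to 4. The groups did not overlap, and the difference was 2.70 (standard error 0.21, limma q = 1.9e-04). Plau, the urokinase that frees the D chain, was lower in level, with 3.81 ± 1.20 FPKM in SMCs and 0.539 ± 0.213 FPKM in pericytes (SD, n = 4 each, limma q = 0.00130). The co-receptors Nrp1 and Lrp1 also passed (limma q = 0.00117 and 0.0111), with 62.1 and 29.7 FPKM on average in SMCs against 10.1 and 7.48 FPKM in pericytes. Pdgfrl, whose values are given above, had a difference of 2.97 (limma q = 0.0133). Proprotein convertases passed in both directions. Pcsk5 was higher in SMCs, at 14.8 ± 1.64 against 1.82 ± 1.004 FPKM (SD, n = 4 each, difference 2.55, limma q = 4.8e-04), as was Pcsk6, at 2.33 ± 1.33 against 0.515 ± 0.276 FPKM (SD, n = 4 each, limma q = 0.0304). Furin, the convertase that cuts the A and B chains inside the cell, was higher in pericytes, at 10.1 ± 1.15 against 4.91 ± 1.54 FPKM (SD, n = 4 each, limma q = 0.0131), a call lost with TPM scaling (limma q = 0.0726). Pcsk7 and St14 did not pass.

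Adaptors and enzymes that bind the activated receptors passed for 8 of 25 genes, 5 higher in pericytes and 3 higher in SMCs, with a median difference of 0.09. Slc9a3r1 and Slc9a3r2, scaffold proteins that bind the tail of PDGFRβ, moved in opposite directions. Slc9a3r1 had 120.4 FPKM on average in pericytes and 34.4 FPKM in SMCs, a log2(FPKM + 1) difference of 1.84 (limma q = 0.00427), whereas Slc9a3r2 had 20.8 FPKM in pericytes and 111.8 FPKM in SMCs, a difference of 2.36 in favour of SMCs (limma q = 0.00680). Fyn, a SRC-family kinase that T cells use as well, was higher in pericytes by 1.48 (limma q = 6.9e-04). Lymphocyte marker sums of pericyte libraries were at least 31.9 times those of SMC libraries. The part of lymphocytes in the level of Fyn was not tested. Bcar1, a docking protein for SRC-family kinases, was higher in SMCs by 1.80 (limma q = 0.04999), just inside the threshold, and it lost its call with median-ratio scaling, without pericyte replicate 1, 2 or 3 and without SMC replicate 3 or 4 (limma q up to 0.116).

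In the RAS-MAPK and AKT arms 9 of 13 genes did not pass. Mtor, the kinase of the mTOR complexes, had 14.5 FPKM on average in pericytes and 5.72 FPKM in SMCs (limma q = 0.0162). Mapk3, which encodes ERK1, was higher in SMCs at 53.6 against 23.3 FPKM (limma q = 0.01997), a call lost without pericyte replicate 1 or 3 or SMC replicate 3 (limma q up to 0.0551).

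Negative regulators of receptor tyrosine kinases passed for 7 of 13 genes, 4 higher in SMCs and 3 in pericytes. The feedback inhibitor Spry4 had 12.1 FPKM on average in SMCs and 2.87 FPKM in pericytes (limma q = 0.00825). Ptprb, an endothelial phosphatase, was higher in SMCs by 2.17 (limma q = 0.0397), and lost its call without any 1 pericyte library and without SMC replicate 2, 3 or 4 (limma q up to 0.101). Cblb, a ubiquitin ligase also used in lymphocytes, was higher in pericytes by 2.09 (limma q = 0.00875), and Ptprj, a receptor-type phosphatase that acts on PDGFRβ, by 0.83 (limma q = 0.00448).

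Immediate early genes, which PDGF and many other stimuli including tissue dissociation induce, passed for 5 of 10 genes, 4 of them higher in SMCs. Jun and Egr1 differed by 1.86 and 1.71 (limma q = 0.0271 and 0.0224), and both lost their call without SMC replicate 3 or 4, Jun also without pericyte replicate 1 (limma q up to 0.0714 and 0.0567). Junb was higher in pericytes by 0.68 (limma q = 0.0494), a call kept in only 5 of 16 alternatives. Its difference in favour of pericytes was 0.44 with TPM scaling (limma q = 0.220) and 0.25 with quantile scaling (limma q = 0.574), and the call was also lost with a pseudocount of 0.1, with an intensity trend, without any 1 pericyte library and without SMC replicate 1 or 2 (limma q up to 0.149).

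The class III receptor tyrosine kinases, the nearest relatives of the PDGF receptors, and their ligands passed for 5 of 7 genes. Flt3, a receptor of lymphoid and dendritic progenitors, had 22.6 FPKM on average in pericytes and 3.04 FPKM in SMCs, a difference of 2.48 in favour of pericytes (limma q = 7.0e-04), the opposite direction to Pdgfra. Its ligand gene Flt3l was also higher in pericytes, at 20.1 against 11.0 FPKM (limma q = 0.00489), a call lost with TPM scaling (limma q = 0.0781). The ligand genes Csf1 and Kitl were higher in SMCs by 2.63 each (limma q = 0.00277 and 0.0137). The receptors of these ligands, Csf1r and Kit, did not pass, with 32.9 and 2.09 FPKM on average in SMCs and 18.7 and 10.7 FPKM in pericytes.

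**Figure D5:**
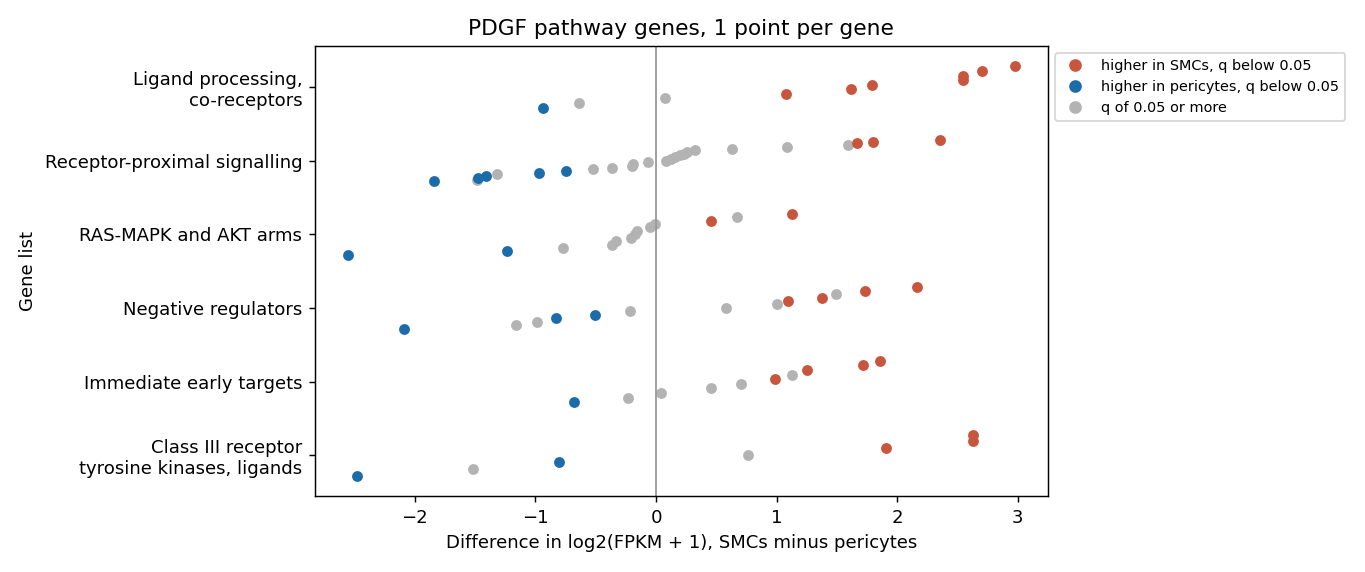
Difference in log2(FPKM + 1), SMCs minus pericytes, for 78 genes in 6 lists, with 1 point per gene, red for higher in SMCs, blue for higher in pericytes (q value below 0.05) and grey for the rest. Ligand processing genes and co-receptors lie mostly to the right (7 of 10 higher in SMCs), and the signalling lists spread to both sides.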

How the data were processed

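Bulk RNA-seq libraries of sorted pericytes (n = 4) and SMCs (n = 4) were amplified with a SMART-Seq kit and built with Nextera XT. Per the submitters' processing notes, reads were aligned by Bowtie2 and TopHat against NCBI Build 37, and the authors deposited a table with FPKM of each gene in each library, not log transformed. The program that computed FPKM is not given in the sources used here, and no read counts were used, so only relative depth could be read from low values and no counting error is given.

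The groups were compared on log2(FPKM + 1) with limma 3.58.1 (lmFit and eBayes, R 4.3.3). Genes at 0 FPKM in all libraries were left out, which kept 27414. Genes with a q value below 0.05 were called. The script was tested on simulated data with known log2 changes. It recovered 18 of 67 changes of 1, 45 of 67 of 2 and 62 of 66 of 4, with 9 false calls. A gene that did not pass may therefore still differ. Positions come from GENCODE version 1 for mouse, which is on NCBIM37, and promoters from RefSeq. Figures were drawn with matplotlib 3.10.9.

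Members and lists were chosen with earlier results of these data known. Named genes were the 6 members, up to 2 genes per direction with the largest passing change in each pathway list, and the 3 nearest profiles per member. Plau, Pcsk5, Pcsk6, Nrp1, Lrp1, Pcsk7, St14, Csf1r and Kit were named after their values were seen, as were the marker genes. One pathway gene was matched by its older symbol, and some pathway genes that the rule picks are not reported here. The results were recomputed with a smaller pseudocount (0.1), with only those genes that reach 1 FPKM in 4 or more libraries, with TPM, quantile and median-ratio scaling, the replicate number as a block, replicates 1 and 2 against 3 and 4 as a covariate, with an intensity trend and without each library in turn.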

Additional observations from a re-analysis of the deposited data

Results flagged for a closer look

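Pdgfd was singled out because its libraries split in opposite directions in the 2 groups. Replicates 3 and 4 were lower than replicates 1 and 2 in the pericytes, by 0.75 on the log2(FPKM + 1) scale (1.64 and 3.60 against 5.11 and 4.62 FPKM). In the SMCs replicates 3 and 4 were higher, by 0.73 (35.5 and 49.7 against 21.6 and 29.0 FPKM). The shifts differed by 1.47 between the groups, and this difference was not tested. No library of any member stood apart from the other 3 of its group by Dixon's criterion.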

How the results depend on the processing

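All 6 members had a positive SMCs minus pericytes difference under each of the 16 alternatives, and the number that passed was 4 or 5. Pdgfa, Pdgfc, Pdgfd and Pdgfra passed under all of them. Pdgfb passed with TPM scaling (0.78), and with single libraries left out its difference ran from 0.34 to 0.75. Pdgfrb had a difference of 2.02 and passed with low genes filtered out and with the replicate block. It also passed with the covariate for replicates 1 and 2 against 3 and 4, an unlabelled split that Pdgfrb itself follows. Its difference ran from 1.58 to 2.41 with single libraries left out, passing in none. The cause was not tested. The number of pathway genes higher in pericytes was 8 with TPM scaling, which moved the median pericytes minus SMCs difference of 13612 genes from 0.05 to -0.16, and the number higher in SMCs ran from 15 to 22 with single libraries left out. The receptor balance difference, pericytes minus SMCs, was 1.58 and ran from 1.22 to 1.95. For 31 genes besides the members, none reversed, in 41 values a call was lost and in 5 a call was gained.

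Same-numbered pericyte and SMC libraries deviated from their group means with correlations across genes of 0.08 to 0.47, below 0.1 for number 1 and above it for numbers 2 to 4, and 5 of 8 libraries correlated best with their own number. Pairs within replicates 1 and 2 or within 3 and 4 were all positive and pairs across them all negative. No source says that a number marks shared animals or sorts, so the numbers were not taken as pairs. With the replicate block 6153 genes passed against 5977, Pdgfrb passed at the same difference of 2.02 (limma q = 0.00601), Junb no longer passed (limma q = 0.123), and the calls of the other members did not change. FPKM without counts limit what can be said of Pdgfb and Pdgfc, the lowest members.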
